A study of Mus musculus with 14 samples.

Results

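The 10 genes described here belong to the immediate early response, and their levels were measured in sorted mouse T cells of 2 organs and 2 genotypes. They are the AP-1 subunit genes Fos, Fosb, Jun, Junb and Jund, the stress-responsive factor gene Atf3, the response gene Ier2, the growth factor-responsive transcription factor gene Myc, and the feedback genes Dusp1 and Zfp36. They were chosen by name, and each was read from the probe set with a single gene symbol and the highest mean over all 14 arrays. All 10 were on the array with 1 such probe set each, out of 19937 genes with a symbol, and all 10 were among the 13641 genes tested. The comparisons asked how these genes differ between the 4 groups and how they covary between arrays of 1 group, as a possible sign of cell handling or activation.

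The samples were lymphocytes sorted by flow cytometry from C57BL/6 mice, with 1 Affymetrix array per sample. Immature CD4+CD8+ thymocytes came from wild-type (WT) mice (n = 3, replicates 7, 32 and 38) and from mice labelled ENK KO (n = 2, replicates 1 and 29). CD8+ lymphocytes, the population that holds cytotoxic T cells, were taken from the spleens of WT mice (n = 4, replicates 22, 34, 37 and 40) and of ENK KO mice (n = 5, replicates 3, 6, 25, 28 and 31). All 7 WT samples came from animals aged 7 months, with 1 labelled female in each organ. Among ENK KO samples, thymus replicate 1 and spleen replicates 3 and 6 came from 2-month-old females, and the others from males aged 6 to 9 months, so age and sex cannot be told apart within ENK KO. ENK is not spelled out and no allele is named in the labels, and the title of the series refers to Engrailed-2, the homeobox protein of the gene En2. Separate animals are not stated for each sample, so the p-values describe the spread between samples, part of which may be technical.

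Immediate early genes are switched on within minutes of a stimulus without new protein synthesis, through factors already present in the cell such as SRF with its ELK partners and CREB. Fos and Jun proteins pair through leucine zippers to form AP-1, which binds DNA and activates genes of T cell activation, while Dusp1 and Zfp36 limit the response by inactivating MAP kinases and by promoting decay of AU-rich mRNAs. Because sorting, warming and dissociation can also induce them, their level in isolated cells can reflect both the state of the cells in the animal and what happened afterwards.

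Upstream sequences are shown for the 5 members that form the most tightly covarying pairs described below. RefSeq (GRCm38.p6) listed a start for 8 of the 10 members, and 250 bases before it were searched on both strands. The TATA box, TATAAA, was searched on the strand of the gene only. Capitals mark TGACG, the core of the CREB and ATF binding site, read on either strand (CGTCA on the reverse), with overlapping matches joined. Each sequence runs 5′ to 3′ on the strand of its gene and ends at the base before the start.
Fos (chr12:85473640-85473889, forward strand): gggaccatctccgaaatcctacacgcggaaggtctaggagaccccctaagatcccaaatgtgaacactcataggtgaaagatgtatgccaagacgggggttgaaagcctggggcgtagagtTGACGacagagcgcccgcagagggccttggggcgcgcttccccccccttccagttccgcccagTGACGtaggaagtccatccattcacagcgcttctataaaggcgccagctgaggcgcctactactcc
Atf3 (chr1:191183334-191183583, reverse strand): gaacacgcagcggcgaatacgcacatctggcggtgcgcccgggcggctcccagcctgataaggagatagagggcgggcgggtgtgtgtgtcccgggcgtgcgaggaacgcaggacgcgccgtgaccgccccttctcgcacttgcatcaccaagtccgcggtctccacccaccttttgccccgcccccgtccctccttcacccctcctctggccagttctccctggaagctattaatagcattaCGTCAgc
Dusp1 (chr17:26508473-26508722, reverse strand): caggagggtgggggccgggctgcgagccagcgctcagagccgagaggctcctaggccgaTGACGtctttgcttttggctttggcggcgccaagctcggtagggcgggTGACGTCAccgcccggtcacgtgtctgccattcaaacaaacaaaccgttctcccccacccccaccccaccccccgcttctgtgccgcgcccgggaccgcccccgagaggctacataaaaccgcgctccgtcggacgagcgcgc
Jun (chr4:95052223-95052472, reverse strand): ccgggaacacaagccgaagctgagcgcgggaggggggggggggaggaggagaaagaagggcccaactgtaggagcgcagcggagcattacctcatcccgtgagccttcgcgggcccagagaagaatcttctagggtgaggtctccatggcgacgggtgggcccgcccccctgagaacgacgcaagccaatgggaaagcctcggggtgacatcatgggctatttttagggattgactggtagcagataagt
Jund (chr8:70697489-70697738, forward strand): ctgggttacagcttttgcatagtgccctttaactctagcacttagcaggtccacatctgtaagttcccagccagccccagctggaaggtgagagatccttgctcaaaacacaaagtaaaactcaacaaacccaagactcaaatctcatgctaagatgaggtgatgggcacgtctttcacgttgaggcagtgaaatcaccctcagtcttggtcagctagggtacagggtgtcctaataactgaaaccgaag
The letters TGACG were found upstream of Fos, Fosb, Junb, Atf3 and Dusp1, thus in 5 of the 8 members, against 17.8% of 32851 RefSeq promoters of the same length. The full palindrome TGACGTCA occurred in Dusp1 alone of the 8, from -143 to -136 relative to the start, against 1.55% of promoters. The serum response element, known as the CArG box, was found in Zfp36 alone (1.47% of promoters), and TATAAA in Fos alone (7.59%). The AP-1 site TGANTCA was in 0 of 8 windows, against 6.75% of promoters. Other motifs searched were the NF-kB site, found in Fos and Fosb (3.9% of promoters), and the E-box CACGTG, found in Dusp1 (6.02%). Members of the covarying pairs both with TGACG (Fos, Atf3, Dusp1) and without it (Jun, Jund) were present. A match is a description of these letters and not a measured site. Only exact letters in 250 bases were searched, so a motif not found may lie farther upstream or be spelled otherwise. The Jun window, for example, holds tgacatca, a near match to TGACGTCA that was not counted.

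Some properties of the arrays bear on every value below. Array medians lay between 7.14 and 7.25 on the log2 scale. Between 24.6% and 30.5% of probe sets had exactly the same value on any 2 thymus arrays, 4.32% to 7.85% on any 2 spleen arrays and 0% on any thymus and spleen array, over 10, 36 and 45 pairs. The sources used here do not say whether the organs were normalized together, so differences between organs and between processing runs cannot be told apart, and tied values narrow the thymus spread. En2 read between 6.01 and 6.14 in the thymus, between 6.19 and 6.93 in spleen WT and between 6.12 and 7.87 in spleen ENK KO, mostly under the floor of 6.76 that is the 40th percentile of all values, so it did not check the genotype labels. The value of 7.87, the highest of the 14 arrays, was on spleen ENK KO replicate 31, against 6.12 to 6.73 on the other 4 arrays of its group. Where the probe set lies relative to any deletion is not given, so En2 checks the label of that array no more than the others, and the spleen genotype medians are also given without that array. The library labelled spleen ENK KO replicate 28 had Cd4 at 12.20 and Cd8a at 6.78, against 6.61 to 6.81 and 12.36 to 12.53 on the other 4 arrays of that group, which goes against its CD8+ label. Spleen WT replicate 22, labelled female, had Xist at 5.90 and Eif2s3y at 10.17, the pattern of the arrays labelled male.

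In WT mice, 7 of the 10 genes were higher in splenic CD8+ cells than in CD4+CD8+ thymocytes and none was lower. Over all genes tested, 30.5% were called higher and 38.2% lower at an adjusted p under 0.05. The median difference of the members was 1.18 on the log2 scale, against -0.04 for all genes. The 4 spleen arrays all lay above the 3 thymus arrays for 9 members, a separation in that direction that 32.6% of all genes also showed. Atf3 is counted in both the 7 and the 9. It was under the floor on all thymus arrays and was among the genes tested only through its spleen arrays. Fewer cells with a transcript and less RNA per cell cannot be told apart in bulk samples.

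Myc (probe set 10424400), which drives ribosome production and growth in activated T cells, showed the largest difference of the 10 between the organs. In WT thymocytes it read 8.30, 8.40 and 8.16 on replicates 7, 32 and 38. In WT spleen it read 11.40, 11.15, 11.48 and 11.18 on replicates 22, 34, 37 and 40. Every spleen array lay far above every thymus array, and the spread within either group was small. The difference was 3.02 ± 0.12 (log2, SE), or 8.09-fold, with a limma adjusted p of 2.74e-10.

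Among the Fos family, Fos (probe set 10397346) encodes the subunit that forms the most widely studied AP-1 dimer with Jun. It read 8.32, 8.14 and 8.88 in WT thymus, replicates in the same order, and 10.25, 10.42, 10.85 and 10.21 in WT spleen. The groups did not overlap, and the difference was 1.98 ± 0.40, or 3.96-fold (limma, adjusted p 0.000727). Fosb (probe set 10560481), a close relative of Fos, read 8.22, 7.72 and 9.06 in WT thymus and 9.22, 10.31, 10.65 and 10.35 in WT spleen. Spleen WT replicate 22 was the low one and lay just above the highest thymus array. Its difference was 1.80 ± 0.40 (limma, adjusted p 0.00135).

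The 3 Jun genes differed in how far the organs were apart. Junb (probe set 10580282), whose product can restrain Jun activity and supports helper cell programmes, read 9.44, 8.90 and 9.10 in WT thymus and 11.29, 11.67, 11.52 and 11.20 in WT spleen. Its groups were well separated, with a difference of 2.27 ± 0.26, or 4.83-fold (limma, adjusted p 4.71e-06). Jun (probe set 10514466) read 10.81, 10.14 and 11.11 in WT thymus and 11.09, 11.12, 11.52 and 11.11 in WT spleen. The highest thymus array overlapped the spleen arrays, and the difference of 0.52 (95% confidence interval -0.34 to 1.38) was not called (limma, adjusted p 0.261). Jund (probe set 10572456), the Jun gene with the most constant expression in most cells, had a difference of 0.41 (interval -0.07 to 0.88) and was not called either (limma, adjusted p 0.115). It was called under quantile normalization (adjusted p 0.0404), with array weights (0.0287) and without spleen ENK KO replicate 6 (0.0498), in a range of 0.0287 to 0.261 over the alternatives.

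Atf3 (probe set 10361091), a stress-induced member of the ATF family, was at the bottom of the measurable range in the thymus. It read 6.57, 6.68 and 6.68 in WT thymus, under the floor, and 7.68, 8.25, 8.16 and 7.22 in WT spleen. All 9 spleen arrays were above the floor and all 5 thymus arrays under it, so the thymus level is only a bound. The difference of 1.18 ± 0.43 was called (limma, adjusted p 0.0251), but the call was lost with males only (adjusted p 0.0793) and without any 1 of the 3 thymus WT arrays or spleen WT replicate 34 or 37 (adjusted p 0.0541 to 0.0645).

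Ier2 (probe set 10580183), a nuclear protein gene induced by growth factors, ranged from 7.70 to 8.13 in WT thymus and from 8.78 to 9.56 in WT spleen. It was higher in spleen by 1.18 ± 0.19 (limma, adjusted p 0.000125). Zfp36 (probe set 10561453), which encodes tristetraprolin, read at most 10.31 in WT thymus and 10.71 to 11.46 in WT spleen, a difference of 0.84 ± 0.24 (limma, adjusted p 0.0068). Dusp1 (probe set 10449284) encodes a phosphatase of p38, JNK and ERK. It read 10.75, 11.35 and 11.68 in WT thymus and 12.36, 12.54, 12.55 and 11.98 in WT spleen. All spleen arrays were higher, by 1.10 on average (interval 0.01 to 2.19), and the difference was not called (limma, adjusted p 0.0681), with adjusted p values of 0.0269 to 0.216 over the alternatives.

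**Figure D1:**
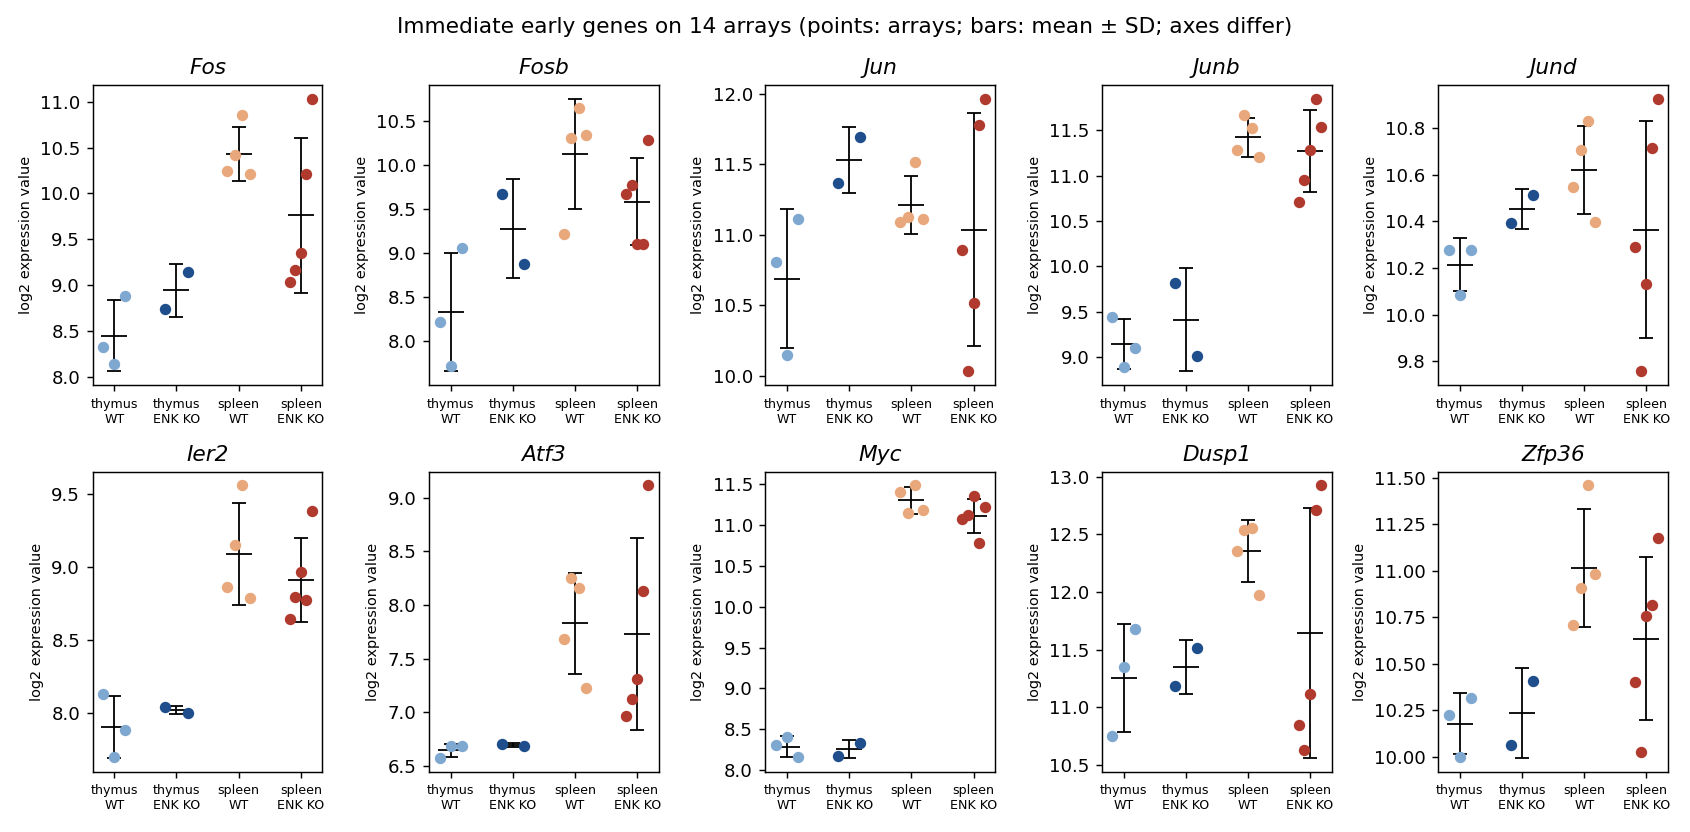
Log2 expression values of the 10 genes on all 14 arrays, 1 panel per gene with its own y axis. Points are arrays, and bars give the mean ± SD of thymus WT (n = 3), thymus ENK KO (n = 2), spleen WT (n = 4) and spleen ENK KO (n = 5). Myc and Junb separated the organs in both genotypes, while Dusp1, Atf3, Fos and Jun had the widest spread in spleen ENK KO.

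Genes around the members in the pathway did not move one way in the same WT comparison. Of 32 other immediate early genes, 16 were called higher in the spleen and 4 lower, with a median of 0.62. By smallest p, Irf1, an interferon-responsive factor, differed by 1.99 (limma, adjusted p 4.98e-10) and Ier5 by 1.08 (limma, adjusted p 8.63e-06), while Klf10, a TGF-beta-induced repressor, differed by -1.51 (limma, adjusted p 7.38e-07) and Arc by -0.64 (limma, adjusted p 5.93e-06). Egr1, a classical serum-induced gene named here after its value was seen, had a difference of 0.19 and was not called (limma, adjusted p 0.388). Of 15 kinases and factors upstream, 3 were higher and 6 lower, Mrtfa (a partner of SRF) by 0.99 and Creb1 by -0.67 (limma, adjusted p 6.21e-08 and 1.33e-07). Of 11 other AP-1 partners, 4 were higher and 3 lower. Atf2, which pairs with Jun and had the smallest p, was lower by -0.74 (limma, adjusted p 1.21e-08), while Batf, which also pairs with Jun proteins, differed by 1.00 and Fosl2 by 2.06 (limma, adjusted p 2.66e-06 and 0.000322).

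Of 15 genes that Myc is known to activate, 11 were higher in WT spleen and none lower, with a median of 0.69. The list held genes of ribosome, nucleotide and polyamine synthesis, and Ldha. Srm, spermidine synthase, differed by 2.28 and Fbl, fibrillarin, by 1.63 (limma, adjusted p 2.79e-09 and 1.14e-10). Of 13 network partners of Myc, 8 were lower and 2 higher. The lower ones included Mxi1, by -1.56, and Mxd4, by -1.40, which compete with Myc for Max (limma, adjusted p 6.99e-10 and 1.15e-08). Of 9 MAP kinase phosphatases other than Dusp1, 2 were higher and 3 lower, and of 13 Zfp36 relatives and mRNA decay genes, 3 were higher and 9 lower. The lists were compared with the members by these counts alone, beside the 30.5% of all genes called higher and the 38.2% called lower.

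In ENK KO mice, 3 of the 10 genes were higher in the spleen than in the thymus and none was lower, against 27.4% of all genes called higher. They were Myc (2.85 ± 0.14), Junb (1.85 ± 0.28) and Ier2 (0.89 ± 0.21), with limma adjusted p values of 1.48e-09, 8.1e-05 and 0.00248. These 3 and Atf3 had every spleen array above every thymus array, as 29.9% of all genes did. Atf3, under the floor in the thymus and tested only through its spleen arrays, differed by 1.03 and was not called (limma, adjusted p 0.0682). Jun differed by -0.49 (interval -1.44 to 0.45) and Jund by -0.09 (interval -0.61 to 0.43). Without spleen ENK KO replicate 6, 5 genes were called, with Atf3 (limma, adjusted p 0.0453) and Zfp36 (0.0444) added, and without the library labelled replicate 28 the count was 3, with Myc at 2.93, Junb at 1.70 and Ier2 at 0.93. Whether the difference between organs itself differed by genotype is the same test as the difference of the genotype effects given below.

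**Figure D2:**
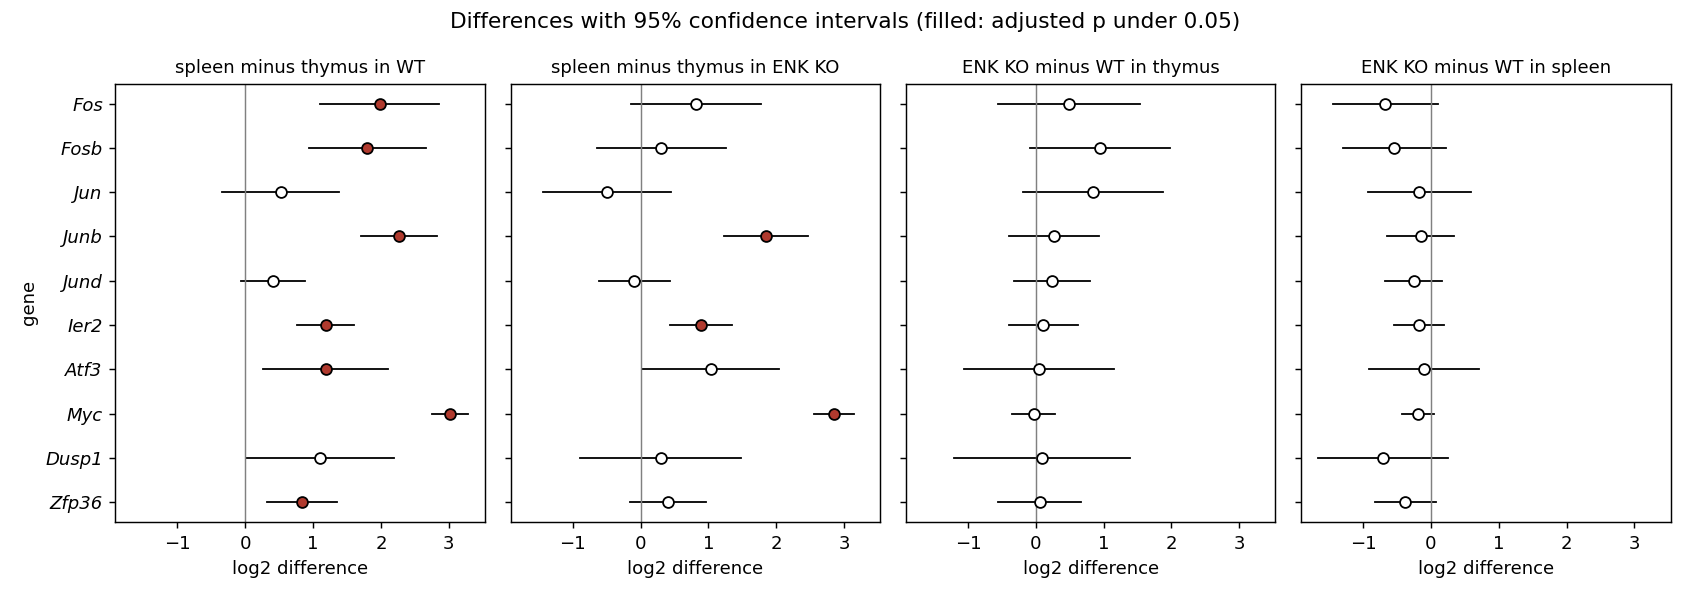
Log2 differences of the 10 genes in 4 comparisons, with 95% confidence intervals from the limma fit over 14 arrays. Filled points have an adjusted p under 0.05, which 7 genes reached between WT organs, 3 between ENK KO organs and 0 in either genotype comparison.

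Between genotypes, 0 of the 10 genes were called in thymocytes, where 0.0147% of all genes were called by limma. An unadjusted p under 0.05 was reached by 0 members and by 481 of 13641 genes. Every member had an adjusted p of 1. Fosb read 9.68 and 8.88 on ENK KO replicates 1 and 29, against 7.72 to 9.06 in WT, a difference of 0.95 (interval -0.08 to 1.98). Jun read 11.36 and 11.69 in ENK KO, above the 10.14 to 11.11 of WT, with a difference of 0.84 (interval -0.19 to 1.87). Jun and Jund were the only members whose 2 ENK KO arrays both lay above all 3 WT arrays, which 4.04% of all genes did. Jund read 10.39 and 10.51 against 10.08, 10.28 and 10.28. The remaining members differed by -0.03 (Myc) to 0.49 (Fos), and 9 of 10 differences were above 0, against 6141 of 13641 for all genes. Heat shock genes, which respond to temperature and handling, were above 0 for 8 of 9 in the same comparison, with Hspa1a at 11.13 on ENK KO replicate 29 and at 7.57 on replicate 1, and their part in the values was not tested.

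In splenic CD8+ cells, 0 of the 10 genes were called between genotypes, where 0.00733% of all genes were called by limma. Again 0 members had an unadjusted p under 0.05, against 1142 of 13641 genes. All 10 differences were below 0, with a median of -0.23 against -0.01 for all genes, and the groups overlapped for every member. Dusp1 read 10.85, 10.63, 11.12, 12.71 and 12.92 on ENK KO replicates 3, 6, 25, 28 and 31. Replicates 3, 6 and 25 lay below the lowest WT array and the other 2 above the highest. Its difference from WT was -0.71 (interval -1.67 to 0.25), with a limma adjusted p of 0.676. Fos read 9.04, 9.16, 9.35, 10.21 and 11.03 on the same arrays. The first 4 lay below the lowest WT array, though replicate 28 by less than rounding, and replicate 31 was above all WT arrays. The difference was -0.67 (interval -1.44 to 0.10; limma, adjusted p 0.628).

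Jun read 10.89, 10.03, 10.52, 11.78 and 11.96 on ENK KO replicates 3, 6, 25, 28 and 31, around the narrow WT range of 11.09 to 11.52. Its difference was -0.17 (interval -0.93 to 0.58). Atf3 read 6.97, 7.12, 7.31, 8.13 and 9.12, with replicate 31 alone above WT, and differed by -0.10 (interval -0.91 to 0.71). Junb read 10.71, 10.96, 11.28, 11.85 and 11.53 and differed by -0.15. Myc kept within a narrow band, from 10.78 to 11.35, and differed by -0.20 (interval -0.43 to 0.04). Fosb, with -0.54, Zfp36, with -0.38, Jund, with -0.26, and Ier2, with -0.18, had limma adjusted p values of 0.682, 0.641, 0.719 and 0.777.

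The 2-month-old ENK KO animals weighed on these values. Without them the median difference in the spleen moved from -0.23 to -0.07, Fos went from -0.67 to -0.23 and Dusp1 from -0.71 to -0.11, and Jun, Junb and Atf3 turned to 0.21, 0.13 and 0.36. Without the library labelled replicate 28 the median was -0.35 and all 10 differences stayed below 0. They were then -0.78 for Fos, -0.42 for Fosb, -0.36 for Jun, -0.30 for Junb, -0.34 for Jund, -0.14 for Ier2, -0.20 for Atf3, -0.11 for Myc, -0.98 for Dusp1 and -0.43 for Zfp36, and none was called (limma). Without spleen WT replicate 22 the median was -0.27, and without spleen ENK KO replicate 31 it was -0.43. Markers of other cells also differed between the arrays. The 1 gene called between genotypes in the spleen was Ppbp, on the list of platelet and red cell markers, which was lower in ENK KO. The summed level of 5 platelet and red cell markers was 10.14 to 10.31 in spleen WT and 9.43 to 10.01 in ENK KO, that of 6 B cell markers 10.52 to 10.94 and 10.03 to 10.93, and that of 8 myeloid markers 9.46 to 9.73 and 9.26 to 10.29 (log2 of the sum). Their part in the members' values was not tested.

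The genotype difference in the spleen minus that in the thymus was below 0 for all 10 genes, with a median of -0.47 against -0.01 for all genes. Without the library labelled replicate 28 all 10 were below 0, with a median of -0.58. Without the 2-month-old animals 8 were, with a median of -0.33, and Junb and Atf3 turned to 0.27 and 0.32, while males only gave 8 as well. None was called (limma, adjusted p 1 for each), as against 0.00733% of all genes. Fosb, at -1.49 (interval -2.77 to -0.21), had the only unadjusted limma p under 0.05 among the members, at 0.026. Over all genes, 408 of 13641 had one. The intervals of Fos (-2.47 to 0.14) and Jun (-2.29 to 0.27) were as wide. Whether the genotype effect of either gene differed between organs was thus not resolved with 2 ENK KO thymus arrays.

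The spread among ENK KO spleen arrays was wider than among WT spleen arrays for 8 of the 10 genes. The ENK KO SD was 4.06 times the WT SD for Dusp1, 3.99 times for Jun, 2.87 times for Fos and 2.48 times for Jund. Fosb (0.80 times) and Ier2 (0.82 times) were the exceptions. The median ratio was 2 for the members and 1.2 for all genes, of which 59.86% had the wider spread in ENK KO. Without the library labelled replicate 28, 7 of 10 members had it, with a median of 1.90 against 1.03 for all genes. The WT arrays all came from animals aged 7 months and the ENK KO arrays from animals aged 2 to 9 months, so genotype and the range of ages cannot be told apart here.

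The same arrays were low or high for most members. ENK KO replicate 3 was among the 3 lowest of the 9 spleen arrays for 9 genes, replicate 6 for 8 and replicate 25 for 5. At the other end, WT replicate 37 was among the 3 highest for 9 genes and ENK KO replicate 31 for 8. Averaged over the 10 genes, the deviation from the mean of the own group was -0.35, -0.47, -0.22, 0.28 and 0.75 on ENK KO replicates 3, 6, 25, 28 and 31. It was -0.20, 0.08, 0.32 and -0.20 on WT replicates 22, 34, 37 and 40. Replicate 31 and WT replicate 37 had all 10 genes above their group mean, and replicate 3 had 1. In thymus WT the mean deviations were -0.01, -0.20 and 0.20 on replicates 7, 32 and 38, and the 2 ENK KO thymus arrays deviate by mirror images. There Junb and Fosb were each 0.40 above the mean on replicate 1, while Fos was at -0.20 and Zfp36 at -0.17.

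**Figure D3:**
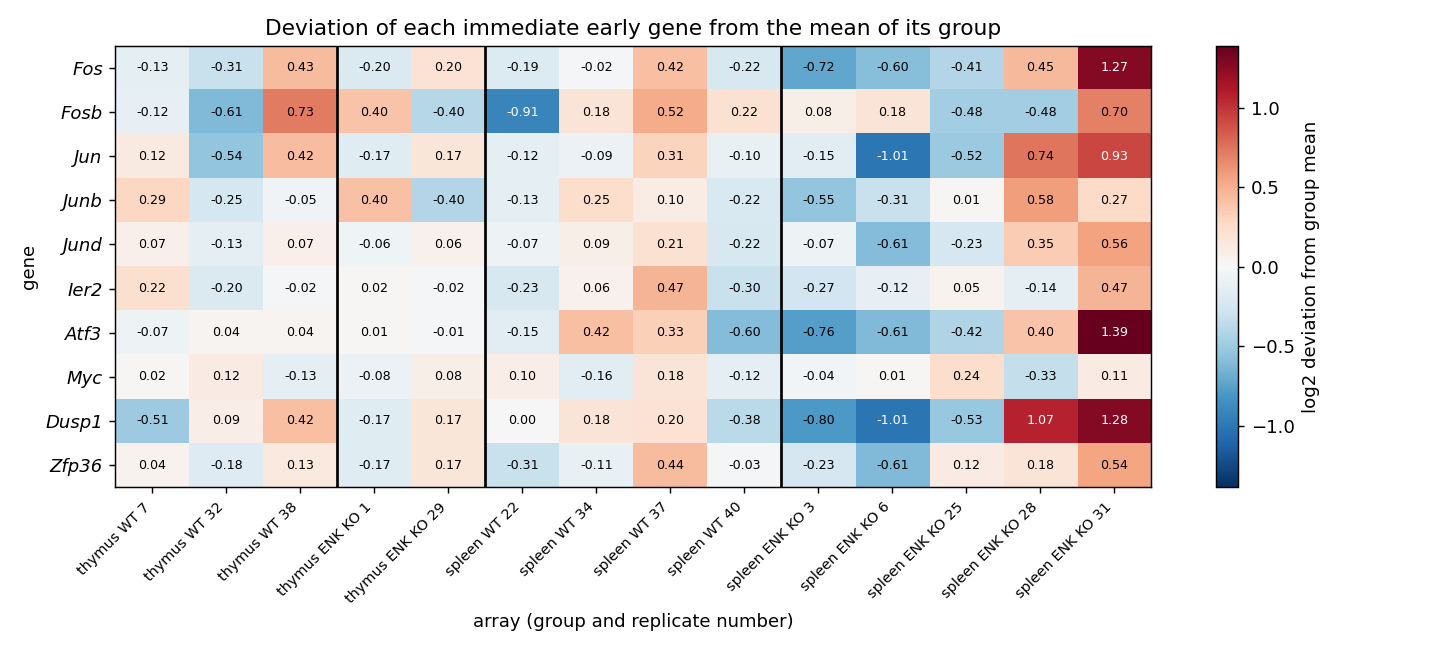
Deviation of each gene on each array from the mean of its group, in log2 units, with red above and blue below the mean. Columns are the 14 arrays, divided by group. Spleen ENK KO replicates 3 and 6 are mostly blue and replicate 31 is red for all 10 genes, whereas Myc stays near 0.

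Deviations from the genotype mean were correlated between genes over the 9 spleen arrays, with exact two-sided permutation of arrays within genotype (2880 arrangements) and Benjamini-Hochberg adjustment over the 45 pairs. Of the 45 pairs, 39 had a Pearson r above 0. The median r was 0.68 against 0.03 over all pairs of tested genes, and 48.89% of member pairs exceeded 0.7 against 4.161% of all pairs. Without the library labelled replicate 28 the median r was 0.73 against 0.04, and 53.33% exceeded 0.7 against 5.23%. Within each genotype there were fewer than 6 arrays, and the 5 thymus arrays were too few, so no r is given there.

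An adjusted p under 0.05 was reached by 5 of the 45 pairs. Jun and Jund had r = 0.97 and a Spearman coefficient of 0.95 (exact permutation p 0.00104 and 0.00417, adjusted 0.0187 and 0.0339). Fos and Atf3 had r = 0.95 and a Spearman coefficient of 0.93 (exact permutation p 0.00208 and 0.00278, adjusted 0.0187 and 0.0339). Dusp1 was a partner in the other 3 pairs, with Fos (r = 0.93, Spearman coefficient 0.98), Jund (r = 0.93, Spearman coefficient 0.95) and Atf3 (r = 0.92, Spearman coefficient 0.92), each with an exact permutation adjusted p of 0.0187 for r and 0.0339 for the Spearman coefficient. Without the 2 arrays farthest from the median of the first gene, r of the 5 pairs was 0.85 to 0.91.

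The r of these 5 pairs was between 0.92 and 0.97 without the library labelled replicate 28. It was between 0.88 and 0.96 without the 2-month-old animals. Over the 6 arrays left without replicates 3, 6 and 25 it was between 0.67 and 0.94. The 5 pairs were picked on these same arrays, so this is no separate check of them. Among pairs not called, Jun with Dusp1 went from 0.93 to 0.56 over those 6 arrays, and Fos with Fosb from 0.40 to 0.78. The number of pairs called was less steady than r of the 5 pairs. By exact permutation it was 8 without the library labelled replicate 28 and 5 without WT replicate 34 or 37. It fell to 0 without any 1 of WT replicates 22 and 40 or ENK KO replicates 3, 6, 25 and 31. Leaving out 1 WT array leaves 720 arrangements, with a smallest possible p of 0.00139, and 1 ENK KO array 576, with 0.00174. No pair can then be called on its own after adjustment over 45 pairs, so these counts are limited by the number of arrangements. Without the 2-month-old animals the number called was also 0. Only 144 arrangements are left there, with a smallest possible p of 0.00694 before adjustment over 45 pairs, so that count says little.

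Fosb and Myc stood apart from the other members. They had 0 partners called, with a median r with the other 9 genes of 0.25 and -0.01. Fosb was lowest on the library labelled ENK KO replicate 28 (9.11) and on replicate 25 (9.11), and on WT replicate 22 (9.22), 3 arrays that were not all low for the rest. Myc was lowest on the library labelled replicate 28 (10.78) and highest on WT replicate 37 (11.48). Junb, Zfp36 and Ier2 had no partner called by r, with median r values of 0.68, 0.74 and 0.59. Dusp1 had the highest median r, at 0.86, followed by Fos and Jund at 0.82.

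**Figure D4:**
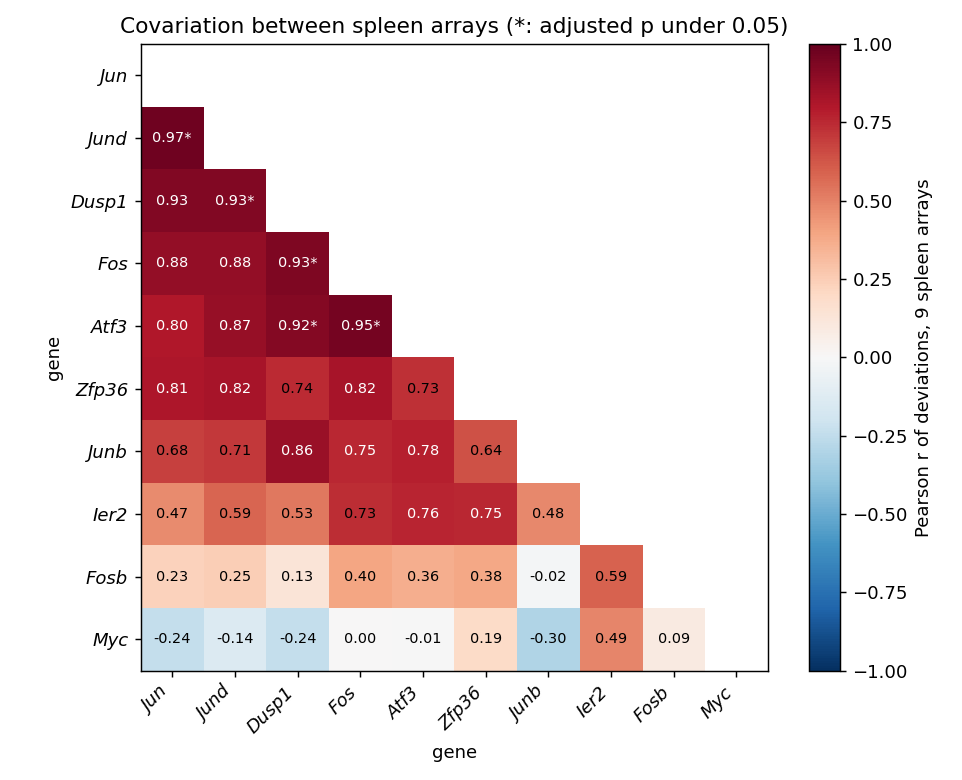
Pearson r between the deviations of each pair of genes from their genotype mean over the 9 spleen arrays, from blue (negative) to red (positive). Asterisks mark the 5 pairs with an exact permutation adjusted p under 0.05. Jun, Jund, Dusp1, Fos and Atf3 form a red block with r of 0.80 or more, and the Fosb and Myc rows are pale.

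On each of the 9 spleen arrays, 32 other immediate early genes had a mean deviation on the same side of 0 as the members. It ran from -0.42 on ENK KO replicate 3 to 0.48 on ENK KO replicate 31. The agreement on ENK KO replicate 25 (-0.05, against -0.22 for the members) depends on the library labelled replicate 28 in the group mean. From a mean taken without that library, replicate 25 would lie above 0 for the 32 genes and below 0 for the members. Among themselves, the 32 genes had a median pairwise r of 0.62 over the 9 spleen arrays. Within 11 other AP-1 partners it was 0.15, and within 9 MAP kinase phosphatases 0.07. The 9 heat shock genes covaried more tightly than the members, with a median r of 0.89 and 75% of their pairs over 0.7. Without the library labelled replicate 28 the medians of these lists were 0.63, 0.13, 0.17 and 0.86, in the same order. As a description over 14 arrays, the 10 tested genes with the highest r between their deviation and the mean deviation of the members were 5730408K05Rik (0.95), Plk2 (0.94), Hexim1 (0.93), Pja1 (0.92), Rhob (0.91), Cd69 (0.91), Klf9 (0.91), Btg2 (0.91), Dnajb4 (0.90) and Siah2 (0.90). Of these, Plk2, a polo-like kinase, Rhob, Cd69, an early surface marker of lymphocyte activation, and Btg2, an antiproliferative gene, were on the list of other immediate early genes. Dnajb4 is a co-chaperone. Over the 9 spleen arrays alone, r of these genes was 0.90 (Dnajb4) to 0.97 (5730408K05Rik). Over the 5 thymus arrays alone, Rhob and Pja1 did not move with the members, while the others had r above 0. Cd69 was higher in WT spleen than thymus by 1.52 and Btg2 lower by -0.79 (limma, adjusted p 0.00218 and 0.00379), so genes alike between arrays of a group differed between organs in both directions.

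Heat shock genes were set beside the members because cell handling can induce both. On spleen ENK KO replicate 31 the mean deviation was 0.75 for the members and 0.77 for 9 heat shock genes, and Hspa1a, an inducible Hsp70 gene, read 13.06 there against 8.43 to 10.57 on the other ENK KO spleen arrays. On WT replicate 37 the 2 means were 0.32 and 0.34. Both means were below 0 on WT replicate 22, at -0.20 for the members and -0.48 for heat shock genes. The lists lay on opposite sides of 0 on the library labelled ENK KO replicate 28, with 0.28 for the members and -0.57 for heat shock genes, on ENK KO replicate 3, with -0.35 and 0.08, and on WT replicate 40, with -0.20 and 0.15. On WT replicate 34 (0.08 and -0.01) and ENK KO replicate 25 (-0.22 and -0.02) heat shock genes were near 0. The ENK KO mean behind these deviations includes the library labelled replicate 28. From a mean taken without that library, replicate 3 would lie below 0 for both lists, and replicate 25 farther below 0 for heat shock genes. ENK KO replicate 6 had -0.47 for the members and -0.26 for heat shock genes, and also the highest mean deviation of B cell (0.63) and myeloid markers (0.50) among the 14 arrays. The part of handling in the members' levels was not tested, since no label records the time or temperature between necropsy and lysis.

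**Figure D5:**
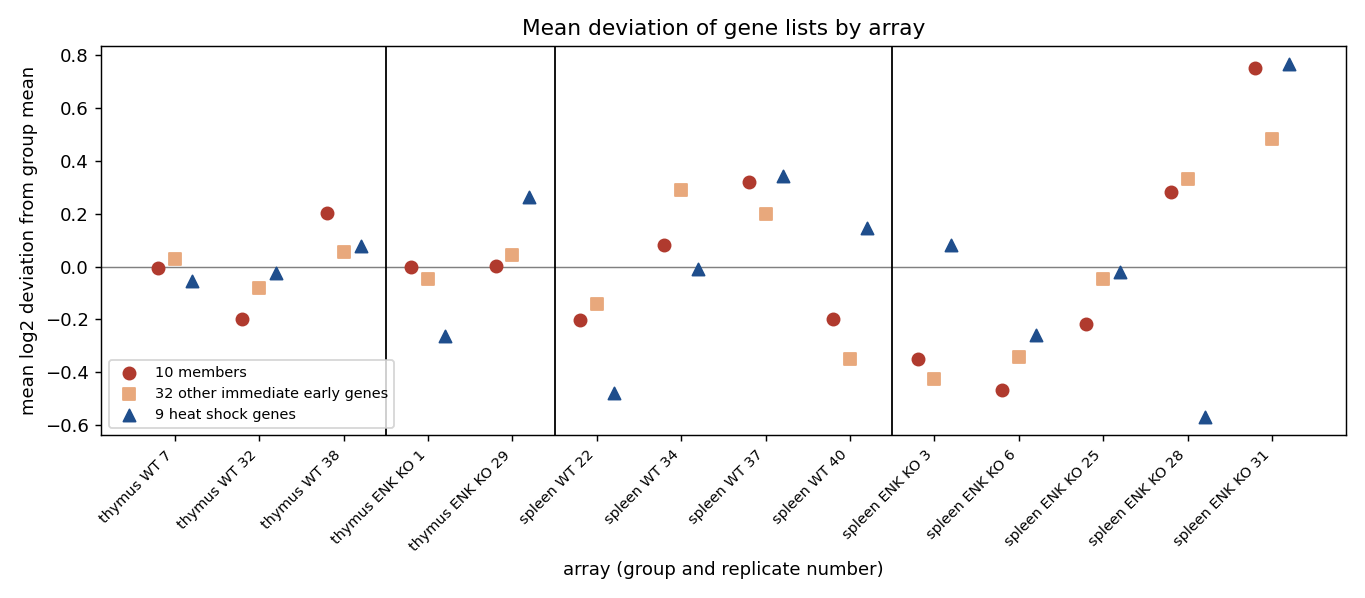
Mean log2 deviation from the group mean of the 10 members (circles), 32 other immediate early genes (squares) and 9 heat shock genes (triangles) on each array. Members and heat shock genes were both highest on spleen ENK KO replicate 31 (0.75 and 0.77) and lay on opposite sides of 0 on replicate 28 (0.28 and -0.57).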

How the data were processed

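The deposited values of the 14 arrays are on the log2 scale, 1 per probe set. The authors used RMA, according to the submitters' processing notes, a method that corrects background, normalizes arrays by quantiles and summarises probes. The sources used here name no software and do not say if all arrays were run as 1 set. Per the labels' protocols, 300 ng of total RNA were labelled per sample. The number of arrays limits the precision.

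Of 28213 probe sets, 21640 had 1 gene symbol, 1321 several and 5252 none in the table used. A gene was tested where at least 2 arrays exceeded 6.76, the 40th percentile. Group means of all 14 arrays were fitted in limma 3.58.1 (R 4.3.3), using eBayes with a trend, with Benjamini-Hochberg adjustment over 13641 genes, and an adjusted p under 0.05 counted as called. Correlations were computed in Python 3.11.15 with numpy 2.4.6. Both steps were tested on simulated data. The members, lists and tests were chosen with earlier results of these data known. All 10 members were named in each comparison, up to 4 genes of a list by smallest p or for a level set beside a member, and the 10 genes most alike by r. Alternatives were other filters, scalings, variance models and probe set means, age and sex covariates, and arrays left out. Correlations without the 2-month-old animals and without spleen replicates 3, 6 and 25 were added after seeing the data.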

Additional observations from a re-analysis of the deposited data

Results flagged for a closer look

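Values of 17 genes were examined in the 2 spleen groups of 4 and 5 arrays for 1 array far from the rest of its group, which chance gives in about 1 of 20 groups. The genes besides the 10 members were Hspa1a, Cd4, Cd8a, Rhob, Plk2, Cd69 and Btg2, picked with earlier results of these data known. The number of such values can therefore not be set against chance. In 34 gene and group combinations there were 3 such values, of which those of Cd4 and Cd8a were on the same array. Jun read 11.52 on spleen WT replicate 37, against 11.09 to 11.12 on the other 3 WT arrays. The library labelled spleen ENK KO replicate 28 had Cd4 at 12.20 against 6.61 to 6.81 and Cd8a at 6.78 against 12.36 to 12.53 on the other 4 arrays of its group. Foxp3, a marker of regulatory T cells, read 9.87 there. The spleen genotype differences, their median, the median SD ratio and the count called between ENK KO organs are also given without that library. So are the median r of each list and r of the called pairs. Other values over the spleen arrays, such as array ranks and mean deviations, are given with it only. Leaving it out also changed a WT call, as Dusp1 was then called higher in WT spleen than in WT thymus (limma, adjusted p 0.0439).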

How the results depend on the processing

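No paired analysis was possible because no replicate number occurs in more than 1 group. Of 1369 repeats of the members' single comparisons, 1312 kept their direction and side of the threshold, 6 lost a call, 14 gained one and 37 changed sign. Many of these repeats could not change a difference, so the 1312 overstates how steady the values are. Probe set means changed nothing with 1 probe set per member. Filters, variance models other than array weights, and arrays left out of other groups left the differences as they were. Leaving out the library labelled replicate 28 was counted more than once. No member was called between genotypes under any alternative run. The count of members higher in WT spleen was 6 to 9 over the alternatives, and that in ENK KO 3 to 5 when 1 array was left out, with 4 under array weights. The number of correlated pairs, 5, was 8 by the Spearman coefficient and 8 without the library labelled replicate 28. It was 0 without the 2-month-old animals, a setting chosen after seeing the data, with 144 arrangements left. When 1 array was left out it was 0 to 8, with 720 or 576 arrangements left, where no pair can be called on its own.

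Sign changes were of differences that were not called, and the cause was not tested. In the spleen, ENK KO minus WT turned to 0.14 (Jun) and 0.22 (Atf3) with an age covariate, to 0.21 (Jun), 0.13 (Junb) and 0.36 (Atf3) without 2-month-old animals, and to 0.17, 0.089 and 0.31 in males only. With 1 array left out it ran from -0.41 to 0.079 for Jun and from -0.45 to 0.091 for Atf3. In the thymus it turned to -0.078 for Dusp1 under array weights, to -0.13 for Junb without 2-month-old animals, and for Myc to 0.046 without them and 0.054 in males only. With 1 array left out it ran from -0.16 to 0.30 (Dusp1), -0.13 to 0.67 (Junb), -0.11 to 0.046 (Myc) and -0.12 to 0.23 (Zfp36). The spleen minus thymus difference in ENK KO turned to 0.016 for Jund under quantile normalization and to 0.077 without 2-month-old animals or in males only. With 1 array left out it ran from -0.23 to 0.062 (Jund), -0.090 to 0.71 (Fosb) and -0.024 to 0.55 (Dusp1). The difference of genotype effects turned to 0.27 (Junb) and 0.32 (Atf3) without 2-month-old animals and to 0.076 and 0.31 in males only, and for Atf3 ran from -0.50 to 0.041 with 1 array left out. Quantile normalization and median centring moved the median of all genes by at most 0.034. Atf3 lies under the floor on all thymus arrays, which limits its fold.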
